A study of Homo sapiens with 6 samples.

Results

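The genes described here encode the proteins of the cytosolic ribosome. They were chosen by name, as the protein-coding genes of GENCODE release 29 (build GRCh38) whose symbol is RPL or RPS followed by a number, with an optional letter and further digits, or is RPSA, RPLP0, RPLP1 or RPLP2. The rule gave 86 genes of 19969 protein-coding genes, and no measured value entered it. Of these, 84 lie on chromosomes 1 to 22 and X, where 19864 protein-coding genes were compared. RPS4Y1 and RPS4Y2 lie on chromosome Y and had 0 start peaks in each of the 3 peak lists. The 84 genes comprised 32 of the small subunit (RPS names and RPSA), 49 of the large subunit and the 3 genes of the ribosomal stalk. The rule also takes in 7 paralogs on these chromosomes, copies of standard ribosomal proteins such as RPL3L, RPL10L and RPL22L1.

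The study compared run-on sequencing protocols in K562, an established human leukaemia line of erythroid character, which the labels list as lymphoblastoid. The cells were untreated. PRO-seq maps engaged RNA polymerases by letting them add a biotin-labelled nucleotide to nascent RNA, which is then purified and sequenced. The 3 groups, each of 2 replicate libraries separated by at least 3 passages, are named by protocol and cell number. PRO-seq 1M followed the published protocol with 1M cells, qPRO-seq 1M a quicker one with as many cells, and qPRO-seq 250k the quicker one with 250k cells. Values given as 3 in a row follow this order. The published protocol used 3 affinity purifications and the quicker one 1, and PCR ran for 11 cycles in the 1M groups and 14 in the 250k group. Each group had 1 deposited list of dREG peaks. The dREG program learns the shape of run-on signal at promoters and enhancers, on each DNA strand, and calls sites with that shape.

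On chromosomes 1 to 22 and X the lists held 24707 peaks (PRO-seq 1M), 38177 peaks (qPRO-seq 1M) and 15562 peaks (qPRO-seq 250k). They hold no read counts, so the depth behind each list is unknown. With 1 list a group there is no spread between replicates, and nothing was tested between groups. Among markers used to check the label, 8 of 9, 9 of 9 and 8 of 9 erythroid genes had a start peak, a peak within 500 bp of an annotated transcript start. The B lymphoid genes had one in 2 of 7, 2 of 7 and 1 of 7 cases. The T lymphoid genes CD3E, CD3D and CD2 had 0 of 3 in each list, and of the 4 myeloid genes SPI1 alone had a start peak. Of all protein-coding genes, 52.9%, 54.5% and 44.0% had a start peak. The erythroid genes HBG2 and HBE1 had equal peak scores in each list, so a single peak may count for both.

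A ribosome holds most of its proteins in a single copy, the stalk proteins RPLP1 and RPLP2 being exceptions. The genes of ribosomal proteins are among the most heavily transcribed in growing cells. Most of their mRNAs begin at a C followed by an unbroken stretch of pyrimidines, the terminal oligopyrimidine (TOP) motif, through which the mTOR pathway controls their translation. Many of the genes carry small nucleolar RNAs (snoRNAs) in their introns, and many have left processed pseudogenes elsewhere in the genome.

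The start sequences show this motif. RefSeq (build GRCh38.p14) gave promoter windows, from 250 bases before to 50 bases after the start, for 67 of the 84 genes, with 83 starts in all. RefSeq windows of the other 17 genes were not used here. Of the 83 starts, 52 (62.7%; Wilson 95% interval 51.9 to 72.3%) had C as their first base, against 11.3% of 20956 starts of all protein-coding genes. A C followed without a break by further pyrimidines, for a run of at least 5 with the start base, stood at 47 of the 83 starts (56.6%; 45.9 to 66.8%), against 4.60% of all starts. These 47 starts belonged to 47 of the 67 genes. The starts of mitochondrial ribosomal protein genes, whose products work in the organelle's own ribosome, had such a run in 6 of 85 cases (7.06%; 3.28 to 14.6%). The run depends on the start used: at the single principal GENCODE start it was found in 12 of the 84 genes (14.3%), against 2.67% of all genes.

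**Figure D1:**
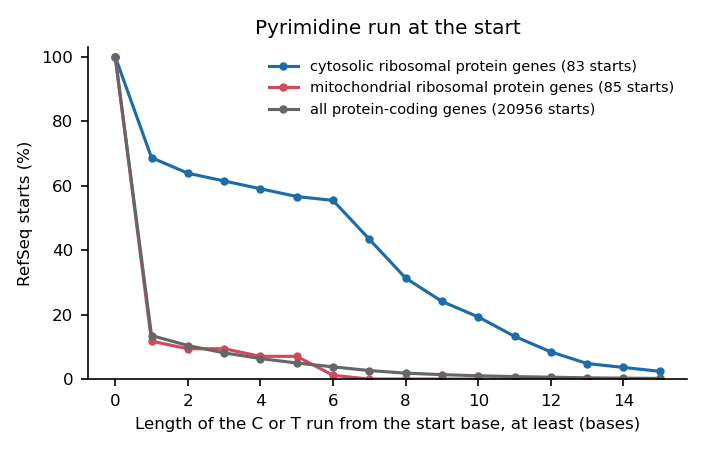
Share of RefSeq starts (vertical axis, percent) whose run of C or T from the start base is at least as long as the value on the horizontal axis (bases), for 83 starts of cytosolic ribosomal protein genes, 85 of mitochondrial ribosomal protein genes and 20956 of all protein-coding genes. At 8 bases or more the share is 31.3% for cytosolic ribosomal protein genes and 1.84% for all genes, and no mitochondrial ribosomal protein gene is left.

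The following windows run 5′ to 3′ from 60 bases before the start through the first 20 bases of the transcript, on the strand of transcription, with the pyrimidine run in capitals. They are shown for the genes with the longest runs (RPL39 and RPL7A), for RPS6, whose product is phosphorylated by the kinases named after it, for RPSA and RPS19, for RPL11, and for the stalk genes. Where a gene had several RefSeq starts, the start with the longest pyrimidine run was taken. This applies to RPL11 and RPS19, whose other listed start begins with A and has no such run.
RPL7A, chr9:133348158-133348237, plus strand: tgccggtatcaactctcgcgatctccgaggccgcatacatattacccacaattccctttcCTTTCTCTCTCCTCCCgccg
RPL39, chrX:119791611-119791690, minus strand: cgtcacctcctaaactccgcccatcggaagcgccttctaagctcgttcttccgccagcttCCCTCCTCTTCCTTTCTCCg
RPS6, chr9:19380217-19380296, minus strand: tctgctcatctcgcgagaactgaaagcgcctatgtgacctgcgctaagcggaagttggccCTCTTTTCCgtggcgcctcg
RPSA, chr3:39406660-39406739, plus strand: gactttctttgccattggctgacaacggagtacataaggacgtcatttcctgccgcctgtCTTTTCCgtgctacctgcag
RPS19, chr19:41860195-41860274, plus strand: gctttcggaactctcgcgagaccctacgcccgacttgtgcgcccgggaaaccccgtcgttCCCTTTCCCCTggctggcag
RPL11, chr1:23691746-23691825, plus strand: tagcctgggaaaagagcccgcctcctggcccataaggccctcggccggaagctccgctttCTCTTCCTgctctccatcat
RPLP0, chr12:120201092-120201171, minus strand: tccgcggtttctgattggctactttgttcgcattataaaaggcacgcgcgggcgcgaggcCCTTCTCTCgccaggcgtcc
RPLP1, chr15:69452758-69452837, plus strand: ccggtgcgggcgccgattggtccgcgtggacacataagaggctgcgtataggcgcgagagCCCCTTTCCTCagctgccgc
RPLP2, chr11:809907-809986, plus strand: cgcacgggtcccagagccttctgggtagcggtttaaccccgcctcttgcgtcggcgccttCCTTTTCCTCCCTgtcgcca
RPL39 had the longest run, 19 bases, and RPL7A had one of 16 bases. Those of the stalk genes were 9 bases (RPLP0), 11 bases (RPLP1) and 13 bases (RPLP2).

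The next windows, cut and marked the same way, belong to standard ribosomal protein genes that lacked a start peak in at least 1 list and are described further on.
RPS9, chr19:54200798-54200877, plus strand: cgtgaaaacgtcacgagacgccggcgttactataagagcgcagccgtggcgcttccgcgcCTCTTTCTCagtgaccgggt
RPS18, chr6:33272015-33272094, plus strand: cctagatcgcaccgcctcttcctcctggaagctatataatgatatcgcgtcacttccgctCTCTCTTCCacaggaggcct
RPL41, chr12:56116573-56116652, plus strand: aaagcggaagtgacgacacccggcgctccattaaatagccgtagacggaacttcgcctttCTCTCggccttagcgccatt
RPS25, chr11:119018324-119018403, minus strand: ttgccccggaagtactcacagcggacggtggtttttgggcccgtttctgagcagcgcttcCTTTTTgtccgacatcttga
RPL27, chr17:42998359-42998438, plus strand: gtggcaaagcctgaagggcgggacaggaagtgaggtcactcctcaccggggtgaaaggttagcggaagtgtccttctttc
RPS15, chr19:1438336-1438415, plus strand: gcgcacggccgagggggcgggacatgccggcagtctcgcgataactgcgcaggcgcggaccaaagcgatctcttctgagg
RPS26, chr12:56041858-56041937, plus strand: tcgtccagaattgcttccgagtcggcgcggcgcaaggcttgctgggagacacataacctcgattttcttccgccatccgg
RPS9, RPS18, RPL41 and RPS25 have a TOP-like run at the RefSeq start, whereas RPL27, RPS15 and RPS26 do not.

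Motifs were searched on both strands of the whole 300-base windows. The element TCTCGCGA was found in 13 of the 83 windows (15.7%; 9.39 to 24.98%), against 1.61% of all windows. It lay in 12 genes, namely RPL4, RPL7A, RPL10, RPL10A, RPL12, RPL17, RPL26, RPL27A, RPS6, RPS15, RPS19 and RPS28. The ETS or GABP motif CCGGAAG was in 33.7% of the windows (24.5 to 44.4%) against 12.9%, and the YY1 motif AAGATGGCG in 7.23% (3.36 to 14.9%) against 2.49%. Mitochondrial ribosomal protein genes had these last motifs in 38.8% and 15.3% of their windows, and TCTCGCGA in 2.35%. The SP1 motif GGGCGG (54.2% against 56.98%), the NFY motif CCAAT (32.5% against 34.6%) and TATAAA (8.43% against 9.25%) were at about the share of all windows. Windows of 1 gene can overlap, and so can matches of the ETS and YY1 motifs, since one ends and the other begins with AAG. A match describes the letters, not a bound site.

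The promoters at the RefSeq starts of RPL27A and RPL38 are given next. The peak at this start of RPL27A stood at 95.2 in qPRO-seq 1M, on the scale of score percentiles within the list, while a higher-scored peak of the gene lay elsewhere. RPL38 had the lowest percentile of all members there, 12.03. The sequences run from 250 bases before the start through the first 20 bases of the transcript. Capitals mark the motifs named above, on either strand, and the pyrimidine run.
RPL27A, chr11:8682542-8682811, plus strand: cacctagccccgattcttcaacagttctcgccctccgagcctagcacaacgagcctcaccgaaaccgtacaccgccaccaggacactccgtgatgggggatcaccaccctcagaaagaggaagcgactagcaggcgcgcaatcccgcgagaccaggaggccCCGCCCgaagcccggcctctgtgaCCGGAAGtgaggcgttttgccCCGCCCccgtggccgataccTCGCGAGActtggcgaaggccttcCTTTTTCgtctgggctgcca
RPL38, chr17:74203428-74203697, plus strand: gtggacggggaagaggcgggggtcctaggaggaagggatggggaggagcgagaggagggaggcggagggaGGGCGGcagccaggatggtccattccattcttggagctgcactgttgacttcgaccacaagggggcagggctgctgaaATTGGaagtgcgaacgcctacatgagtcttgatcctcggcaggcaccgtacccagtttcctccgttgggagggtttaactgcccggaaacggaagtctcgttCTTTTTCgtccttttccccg
In RPL27A, an SP1 match, the ETS match, another SP1 match and the TCTCGCGA match begin 89, 65, 44 and 24 bases before the start. In RPL38, an SP1 match begins 180 bases and an NFY match 102 bases before the start.

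A gene was said to have a start peak when its list held a peak no more than 500 bp from one of the gene's annotated transcript starts. In PRO-seq 1M, 77 of the 84 genes had one (91.7%; 83.8 to 95.9%), against 52.9% of all protein-coding genes. The count was also 77 of 84 in qPRO-seq 1M, against 54.5% of all genes. It was 75 of 84 in qPRO-seq 250k (89.3%; 80.9 to 94.3%), against 44.0%. A start peak in all 3 lists was present for 74 genes (88.1%), against 43.1% of all genes, and 5 genes had none in any list. The intervals cover counting error only, and the lists come from the same cell line. Ribosomal protein genes had a median of 8 annotated starts against 5 for all genes, which gives them more places where a peak can count.

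Other gene lists also had shares above those of all protein-coding genes. The 78 mitochondrial ribosomal protein genes had start peaks in 91.0%, 91.0% and 85.9% of cases. The 30 ribosome biogenesis genes had them in 28, 29 and 27 cases, and the 21 other genes known for TOP mRNAs, such as EEF1A1 and EEF2, in 90.5%, 95.2% and 90.5%. The 39 proteasome subunit genes had them in 79.5%, 79.5% and 69.2%. Of these genes, 8 had none in any list: PSMA8, PSMB3, PSMB8, PSMB9, PSMB10, PSMB11, PSMC5 and PSMD4. PSMB8 and PSMB9 lie in the stretch without peaks around RPS18 that is described further on. In each peak list the intervals of these gene lists overlap that of the cytosolic ribosomal protein genes, narrowly so for the proteasome in qPRO-seq 250k (53.6 to 81.4%).

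**Figure D2:**
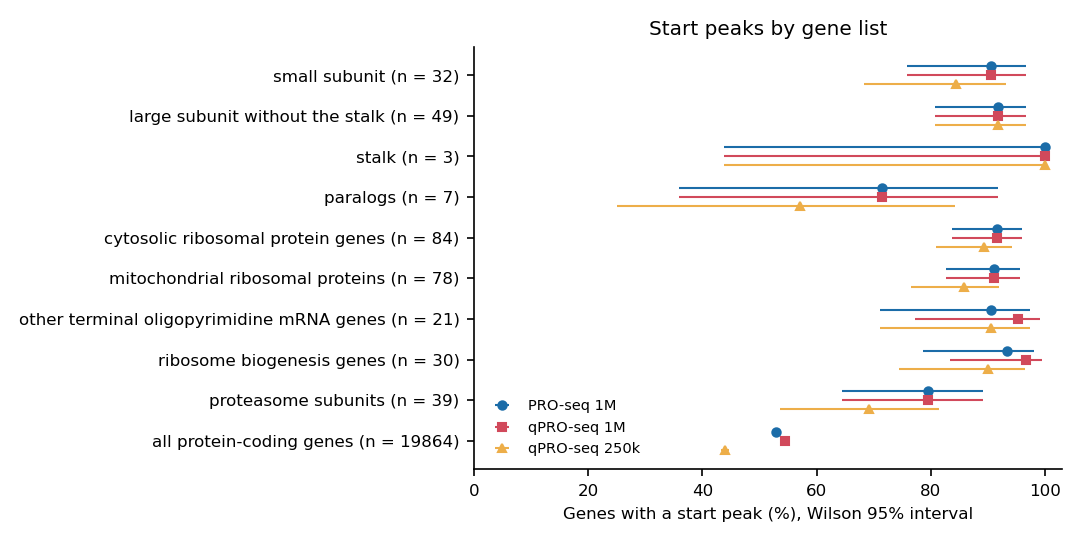
Percentage of genes with a peak within 500 bp of an annotated start (horizontal axis) for each gene list (vertical axis, with the number of genes), in the 3 peak lists. Bars are Wilson 95% intervals; the 84 cytosolic ribosomal protein genes lie at 91.7%, 91.7% and 89.3%, and all protein-coding genes at 52.9%, 54.5% and 44.0%.

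Small subunit genes had a start peak in 29 of 32 cases in both 1M lists and in 27 of 32 in qPRO-seq 250k. Large subunit genes had one in 45 of 49 cases in each list. All 3 stalk genes had one in each list. Of the 12 listed Diamond-Blackfan anaemia genes, mutations in which cause a congenital failure of red cell production, all had a start peak in the 1M lists and 11 in qPRO-seq 250k, where RPS26 lacked it.

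The score that dREG gives each peak has no fixed unit. It was used as a percentile, the share of the peaks of the same list that score no higher. A percentile therefore places a gene within 1 list, and a difference in percentile between lists of unequal length is not a change. Where a gene had several start peaks, the highest-scored one was taken. The median percentile of ribosomal protein genes was 80.7 in PRO-seq 1M, 86.3 in qPRO-seq 1M and 74.3 in qPRO-seq 250k. The medians over all genes with a start peak were 76.4, 80.7 and 68.2. Ranked among the genes with a start peak alone, the median ribosomal protein gene stood at the 57.6th, 62.3rd and 58.1st percentile. Above the 90th percentile were 24 of 77, 30 of 77 and 21 of 75 of the ribosomal protein genes with a start peak, which is 31.2%, 39.0% and 28.0%, against 23.1%, 28.4% and 17.3% of all genes with one. The mitochondrial ribosomal protein genes had medians of 79.8, 83.3 and 73.6.

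**Figure D3:**
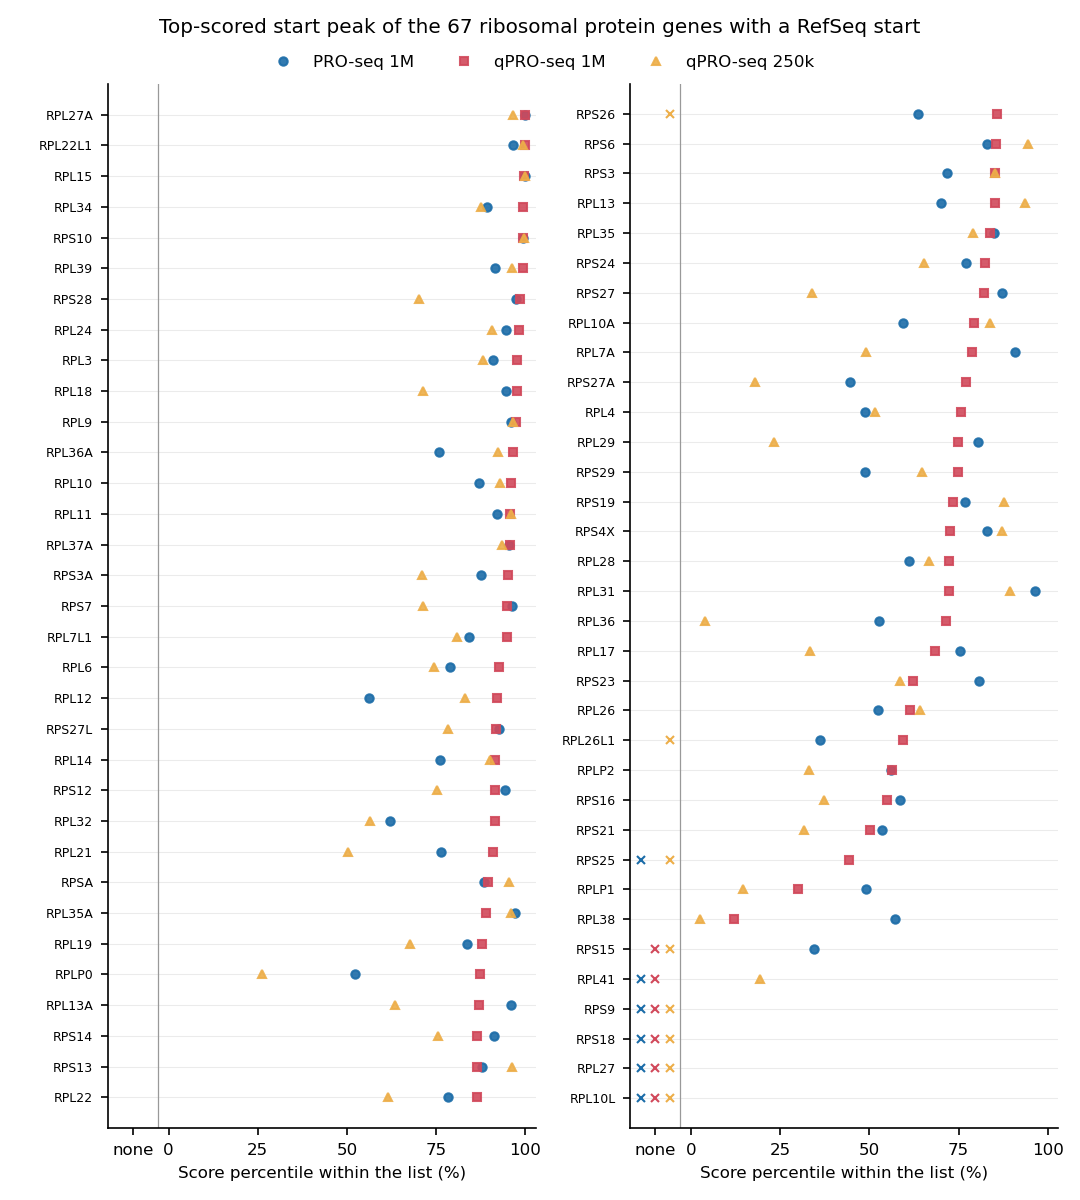
Score percentile within the list (horizontal axis, percent) of the top-scored start peak of each of the 67 genes with a RefSeq start (vertical axis, ordered by qPRO-seq 1M), with 1 symbol per peak list and a cross at the left where the list has no start peak. Most genes lie above 50 in all lists, and of those plotted RPL38, RPLP1 and RPS25 lie lowest in qPRO-seq 1M, at 12.03, 30.0 and 44.4.

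Among the 74 genes with a start peak in every list, 11 were above the 90th percentile in all 3: RPL9, RPL11, RPL15, RPL22L1, RPL23, RPL24, RPL27A, RPL37, RPL37A, RPL39 and RPS10. The same count was not made over all protein-coding genes, so 11 of 74 cannot be read as a trait of ribosomal protein genes. Of these 11, RPS10 is the single small subunit gene, and RPL22L1, a paralog of RPL22, is the single paralog. RPL15, a large subunit protein mutated in some Diamond-Blackfan patients, stood at 99.8 in PRO-seq 1M, 99.6 in qPRO-seq 1M and 99.9 in qPRO-seq 250k. RPS10 stood at 99.2, 99.4 and 99.7. RPL22L1 stood at 96.6, 99.8 and 99.5, and RPL34 at 89.1, 99.5 and 87.5. The first 3 of these genes were above the 96th percentile in each list, and RPL34 was below the 90th outside qPRO-seq 1M.

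RPL27A, a large subunit protein gene, had the highest percentile in qPRO-seq 1M, 99.95, with 99.9 in PRO-seq 1M and 96.6 in qPRO-seq 250k. In qPRO-seq 1M this peak lay at chr11:8688681-8689290, with its midpoint 6.19 kb from the RefSeq start, near an annotated GENCODE start of RPL27A and of no other protein-coding gene. The peak at the RefSeq start itself stood at 97.1, 95.2 and 93.3. RPL6 was the other gene of this kind in every list: its top-scored peak lay 7.42, 7.36 and 7.37 kb from the nearest RefSeq start and within 500 bp of a start of PTPN11. Its peak at a RefSeq start stood at 33.4, 75.7 and 26.2, against 78.8, 92.7 and 74.3 for the top-scored one. In each list 2 to 3 of the genes with a peak at a RefSeq start had their top-scored peak elsewhere.

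At the low end, RPL38, whose loss in mice disturbs the patterning of the skeleton, stood at 57.1 in PRO-seq 1M, 12.03 in qPRO-seq 1M and 2.49 in qPRO-seq 250k. RPS15A stood at 45.6, 22.2 and 38.6. RPS21 stood at 53.5, 50.1 and 31.6. Only RPS15A and RPLP1 were below the 50th percentile in all 3 lists, a count that was also not made over all genes.

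The stalk genes encode the acidic proteins that recruit translation factors to the large subunit. RPLP1 stood at 49.0 in PRO-seq 1M, 30.0 in qPRO-seq 1M and 14.6 in qPRO-seq 250k. RPLP2 stood at 56.0, 56.4 and 33.1, and RPLP0 at 52.2, 87.2 and 26.3. The medians of the 3 genes, 52.2, 56.4 and 26.3, were below those of all genes with a start peak in each list. In qPRO-seq 250k all 3 were under the 50th percentile, as were 16 of the 75 ribosomal protein genes with a start peak there. That is 21.3%, against 29.9% of all genes with a start peak in that list. With 3 genes and no replicate lists, this is a description.

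RPL5 and RPL11 form a particle with 5S rRNA that binds MDM2 and so links ribosome assembly to p53. RPL5 stood at 85.3, 91.8 and 85.7, and RPL11 at 92.2, 95.7 and 96.1. RPSA, which is also known as the laminin receptor, stood at 88.5, 89.5 and 95.5. RPS19, the gene most often mutated in Diamond-Blackfan anaemia, stood at 76.9, 73.5 and 87.6. The 12 Diamond-Blackfan genes had medians of 81.1, 87.3 and 85.7, and RPL15 was the highest of them in qPRO-seq 250k, at 99.9. The large subunit without the stalk had medians of 84.3, 90.8 and 79.3, and the small subunit 80.7, 82.5 and 71.1. The small subunit was the lower one in each list, with wide overlap of its quartiles (72.2 to 89.5 in qPRO-seq 1M) with those of the large subunit (75.7 to 97.1).

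The 10 genes that lacked a start peak in at least 1 list fall into several kinds. RPL3L and RPL10L, paralogs whose known expression is in muscle and in testis, had none in any list. The nearest peak was 1398211 bp from a start of RPL10L in PRO-seq 1M, and 1635 bp from one of RPL3L, whose gene body held a peak near its 3′ end in each list. RPL26L1, a paralog of RPL26, stood at 36.3 in PRO-seq 1M and 59.4 in qPRO-seq 1M and had no start peak in qPRO-seq 250k. Of the other paralogs, RPL22L1, RPL7L1, RPL39L and RPS27L had a start peak in all 3 lists.

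RPS9, RPS18 and RPL27 are standard subunits, and none had a start peak in any list. RPS9 and RPS18 shared this with their surroundings. Around RPS9 (chr19:54200742-54249003, plus strand) the stretch chr19:54025001-55084840, 1059.84 kb long, was free of peaks in all 3 lists. It held 40 protein-coding genes with none having a start peak, among them NDUFA3, PRPF31 and CNOT3, which act in respiration, splicing and mRNA decay, and the LILR and KIR receptor genes. Within 100 kb of RPS9, 0 of 13 other protein-coding genes had a start peak in any list.

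RPS18 (chr6:33272010-33276510, plus strand) lies in the major histocompatibility complex. The stretch chr6:31620741-33414460, 1793.72 kb long with 94 protein-coding genes, had no peak in any list. In PRO-seq 1M alone the peak-free stretch around it was 4954.38 kb long, with 178 protein-coding genes, and in qPRO-seq 250k 5079.06 kb with 181. Within 100 kb, 0 of 14 other protein-coding genes had a start peak, VPS52, DAXX and RING1 lying in the same stretch. For chromosome 6 the lists held 25, 66 and 16 peaks on alternate scaffolds, second versions of a region within the build, and for chromosome 19 they held 2, 2 and 0. The part of the alternate scaffolds in the absence of peaks was not tested.

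RPL27 (chr17:42998273-43002959, plus strand) was different in its surroundings. The stretch without peaks in the 3 lists was 39.53 kb long and held RPL27 and IFI35, and 7 of 9 other protein-coding genes within 100 kb had a start peak in each list. The nearest peak was 16783, 16743 and 17503 bp from its starts. RPL41 (chr12:56116586-56117943, plus strand), which encodes the shortest ribosomal protein, had a start peak in qPRO-seq 250k alone, at the percentile 19.4, with 390 bp of width. Within 100 kb of it 10, 7 and 4 of 11 other genes had a start peak. The nearest PRO-seq 1M peak began 1090 bp from a start of RPL41, and in qPRO-seq 1M it was 10916 bp away.

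RPS15, RPS25 and RPS26 had a start peak in some of the lists. RPS15 had a start peak in PRO-seq 1M alone, at the percentile 34.4. RPS25 had one in qPRO-seq 1M alone, at 44.4, and it was 310 bp wide, the narrowest of all members in that list. RPS26 stood at 63.7 in PRO-seq 1M and 85.7 in qPRO-seq 1M and had none in qPRO-seq 250k, the shortest list. These 3 genes lay among neighbours with peaks: within 100 kb, 8 of 10 other genes around RPS15, 9 of 12 around RPS25 and 9 of 12 around RPS26 had a start peak in PRO-seq 1M. A missing start peak says only that dREG called none there, at a depth that is unknown.

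Start peaks of ribosomal protein genes were wider than those of all genes. Their median width was 670 bp in PRO-seq 1M, 590 bp in qPRO-seq 1M and 530 bp in qPRO-seq 250k, against 550, 540 and 470 bp. The rank-based 95% intervals of the members' medians were 620 to 730 bp, 540 to 660 bp and 500 to 570 bp, so that in qPRO-seq 1M the interval reaches the median of all genes. When peaks within 500 bp of each other were merged, the medians were 850, 1000 and 610 bp against 810, 1020 and 560 bp, and the order was turned in qPRO-seq 1M. Mitochondrial ribosomal protein genes had medians of 540, 540 and 470 bp.

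The widest start peaks in qPRO-seq 1M were those of RPL35A (1320 bp), RPL18 (1170 bp), RPL21 (1090 bp), RPL11 (1030 bp) and RPL4 (990 bp), all of the large subunit. RPL35A, a Diamond-Blackfan gene, had 760 bp in PRO-seq 1M and 970 bp in qPRO-seq 250k. RPL18 had 1010 bp and 450 bp, RPL21 980 bp and 690 bp, RPL11 510 bp and 530 bp, and RPL4 510 bp and 740 bp. RPL11 and RPL4 were thus wide in qPRO-seq 1M but not in PRO-seq 1M, and both had 2 start peaks in PRO-seq 1M and 1 in qPRO-seq 1M. The narrowest were those of RPS25 (310 bp), RPLP1 (340 bp), RPS14 (370 bp), RPS4X (370 bp) and RPS20 (390 bp). RPS14 and RPS4X had 870 bp and 590 bp in PRO-seq 1M and 530 bp each in qPRO-seq 250k. RPS20 had 630 bp and 470 bp. Of these 5, RPLP1 was narrow also in qPRO-seq 250k, with 300 bp, but had 620 bp in PRO-seq 1M.

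Coverage by peaks was also counted at fixed distances from the RefSeq start. At 300 bp downstream, 57.4% of the 61 ribosomal protein genes with a peak at a RefSeq start were covered in PRO-seq 1M, 54.1% of 61 in qPRO-seq 1M and 31.0% of 58 in qPRO-seq 250k. All protein-coding genes with such a peak were covered there in 37.9%, 39.0% and 20.1% of cases. At 300 bp upstream the shares were 78.7%, 86.9% and 65.5% against 70.7%, 75.8% and 59.8%. At 500 bp downstream they were 24.6%, 34.4% and 13.8% against 27.1%, 33.7% and 14.1%. At 500 bp upstream they were 37.7%, 49.2% and 24.1% against 34.0%, 42.9% and 22.9%. The share of ribosomal protein genes was the higher one in each list at 300 bp on both sides and at 500 bp upstream, with the largest gap at 300 bp downstream.

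**Figure D4:**
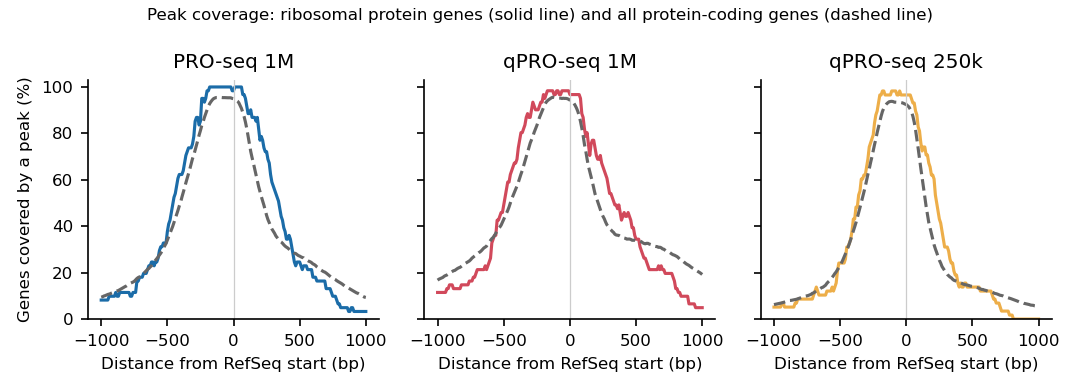
Percentage of genes covered by any peak of the list (vertical axis) at each distance from the RefSeq start (horizontal axis, bp, positive downstream), for ribosomal protein genes with a peak at a RefSeq start (solid) and for all protein-coding genes with one (dashed). At 300 bp downstream the solid line is at 57.4%, 54.1% and 31.0%, and the dashed line at 37.9%, 39.0% and 20.1%.

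The centre of a start peak was measured from the nearest annotated start, with negative values upstream. The signed median was -17 bp in PRO-seq 1M, -24 bp in qPRO-seq 1M and -23 bp in qPRO-seq 250k, against -32, -35 and -34 bp for all genes. Centres lay upstream of the start in 67.5%, 74.0% and 78.7% of the ribosomal protein genes, against 73.1%, 73.3% and 75.2% of all genes. The median distance without its sign was 24, 35 and 29 bp, against 52, 59 and 50 bp. Ribosomal protein genes had more annotated starts, a median of 8 against 5, and the part of this in the shorter distance was not tested. From the single principal start of each gene, the median distance without its sign was 76, 75 and 67 bp, against 86, 90 and 80 bp. From RefSeq starts, of which there are fewer, it was 62, 83 and 58.5 bp, against 72, 78 and 68 bp, and the order was turned in qPRO-seq 1M. The signed medians from RefSeq starts were -46, -72 and -55.5 bp, against -54, -61 and -56 bp.

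In qPRO-seq 1M the centres of RPS19 (-267 bp) and RPL4 (-238 bp) were among those farthest upstream of the nearest start. In PRO-seq 1M these genes had -14 and -378 bp, and in qPRO-seq 250k -44 and -78 bp. The centres farthest downstream were those of RPS29 (223 bp), RPL7 (157 bp) and RPL28 (156 bp). RPS29 had 223 bp also in PRO-seq 1M, and RPL7 had 107 bp there, whereas RPL28 had -161 bp. In qPRO-seq 250k the values were -245, -223 and 146 bp. Each of these 3 genes changed side between lists, and each had several start peaks and several annotated starts. In qPRO-seq 250k the peak taken for RPS29 was another one, at chr14:49586351-49586800.

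Most genes had the same peak in all lists. Of 76 genes with a start peak in both PRO-seq 1M and qPRO-seq 1M, the top-scored peaks overlapped in 73 (96.1%), against 90.3% of 10127 genes. The overlap was 71 of 74 between PRO-seq 1M and qPRO-seq 250k (95.9% against 91.4%) and 70 of 74 between the qPRO-seq lists (94.6% against 90.7%). Centres differed by a median of 45, 45 and 40 bp in these pairs, and by 40 bp in each pair for all genes. Peaks were wider in PRO-seq 1M than in qPRO-seq 250k in 54 of 74 genes, with a median difference of qPRO-seq 250k minus PRO-seq 1M of -120 bp (-180 to -60 bp). Over all genes this held for 6342 of 8608, with a median of -100 bp, so the share among ribosomal protein genes was near that background. Peaks of ribosomal protein genes were wider in PRO-seq 1M than in qPRO-seq 1M in 44 of 76 genes. The median difference of qPRO-seq 1M minus PRO-seq 1M was -45 bp (-110 to 10 bp). Over all genes this held for 4860 of 10127, with a median of 0 bp. Both intervals are taken over genes within single lists, not over replicates, and test no difference between the groups.

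The 3 genes whose centres differed most between PRO-seq 1M and qPRO-seq 1M were RPL36 (9390 bp), RPS19 (590 bp) and RPL23A (510 bp). For RPL36 the top-scored peak lay at chr19:5689871-5690390 in PRO-seq 1M, at the RefSeq start. In qPRO-seq 1M it lay at chr19:5680671-5681140, within 500 bp of starts of C19orf70 and HSD11B1L. In qPRO-seq 250k RPL36 had a peak there alone, at the percentile 4.04, and none at its RefSeq start. For RPS19, PRO-seq 1M had 3 and qPRO-seq 1M had 2 neighbouring start peaks, and the one taken differed. RPL23A had 1 peak of 960 bp in PRO-seq 1M, whereas qPRO-seq 1M had 4 start peaks with 450 bp in the highest-scored one.

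Several start peaks were common. At least 2 were present for 34 of 77 ribosomal protein genes in PRO-seq 1M, 46 of 77 in qPRO-seq 1M and 21 of 75 in qPRO-seq 250k, which is 44.2%, 59.7% and 28.0%, against 49.6%, 61.6% and 32.7% of all genes with a start peak. Of the ribosomal protein genes with at least 2, 29, 41 and 10 had peaks exactly 20 bp apart. This is the smallest gap that the lists hold, so that a broad region can appear as several peaks. The spacing was not counted over all genes, so it cannot be read as a trait of ribosomal protein genes. RPL6, RPL7 and RPS29 had the most start peaks in qPRO-seq 1M, 5 each. RPL6 had 3, RPL7 had 3 and RPS29 had 5 in PRO-seq 1M, and they had 3, 2 and 3 in qPRO-seq 250k.

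The top-scored start peak lay within 500 bp of a start of another protein-coding gene in 17 of 77, 19 of 77 and 17 of 75 genes, and cannot be assigned to one of the genes in those cases. By starts alone, 25 of the 84 genes had another protein-coding gene starting within 1000 bp, such as NKIRAS1 beside RPL15, MED22 beside RPL7A and SUPT5H beside RPS16. Neither count was made over all protein-coding genes, so neither can be read as a trait of ribosomal protein genes. The 25 genes with such a neighbour had a start peak in 23, 24 and 23 cases. Their median percentiles were 75.8, 78.0 and 66.7, against 83.9, 87.0 and 79.0 for the genes without such a neighbour.

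Of the 84 genes, 28 carried 60 annotated snoRNAs within their bounds, up to 5 in 1 gene, as in RPL4. All 28 had a start peak in each of the 3 lists. The other 56 genes, which include the paralogs RPL3L and RPL10L, had one in 49, 49 and 47 cases. Median percentiles were 84.7, 90.2 and 81.1 for the snoRNA hosts and 80.5, 82.5 and 71.3 for the others. The quartiles overlapped in each list, for example 78.7 to 95.3 and 72.5 to 94.8 in qPRO-seq 1M.

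Genes with a TOP-like run at a RefSeq start had a start peak in 43, 44 and 44 of 47 cases, and those without it in 18, 17 and 15 of 20. Their median percentiles were 82.8, 86.3 and 75.3 with the run and 80.8, 91.4 and 74.3 without it. The order of the groups thus differed between lists. Genes with the element TCTCGCGA had medians of 76.1, 79.3 and 83.0, and those without it 83.7, 87.1 and 74.7. Genes with the ETS or GABP motif had medians of 87.2, 87.9 and 76.8, against 76.9, 86.0 and 74.3. With the SP1 motif they were 86.9, 86.7 and 82.1, against 76.7, 86.3 and 65.2. With the NFY motif they were 76.6, 85.7 and 65.2, against 86.9, 88.9 and 79.5. The YY1 motif and TATAAA were each in 6 genes with a start peak. Medians with YY1 were 96.3, 94.5 and 80.4, against 80.5, 85.7 and 75.1. Those with TATAAA were 90.8, 92.4 and 77.8, against 80.7, 86.3 and 75.1. No motif was tested.

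Outside their starts, ribosomal protein genes rarely held a peak. A peak within the gene but away from every annotated start was present in 2, 8 and 2 of the 84 genes (2.38%, 9.52% and 2.38%), against 12.2%, 23.4% and 7.19% of all protein-coding genes. Gene length was not matched, and the part of it in this difference was not tested. RPL6 and RPL3L had one in all 3 lists. In qPRO-seq 1M they were joined by RPL10, RPL13A, RPL22, RPL27A, RPS24 and RPS29.

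Pseudogenes named for these genes numbered 1142 on the chromosomes compared, with a median of 8.5 per gene and the most for RPL23A (91), RPSA (74), RPL21 (66) and RPL7 (61). Peaks lay at 11 of them in PRO-seq 1M (0.963%), 24 in qPRO-seq 1M (2.10%) and 8 in qPRO-seq 250k (0.701%), against 2.76%, 3.67% and 2.12% of all annotated pseudogenes. The count over all 3 lists was 8 pseudogenes, and 5 of these had a protein-coding start within 1000 bp. Those with no such start were RPL32P3, RPL17P41 and RPS15P9. RPL23A, RPSA, RPL21 and RPL7 had a start peak in each list. RPS9, RPL27 and RPS18, which had none in any, have 1, 1 and 5 pseudogenes.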

How the data were processed

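The data were 3 peak lists from 6 libraries of K562 cells, 1 list for each group of 2 replicates. The peak positions, the dREG score and the p-value of each peak are as the authors deposited them, without a header. Per the submitters' processing notes, fastp 0.20.0, Bowtie2 2.3.5.1, deepTools 3.1.3 and UMI-tools were used on builds hg38 or GRCh38. The dREG version, its thresholds and the pooling of replicates are not given in the sources used here. P-values reached 0.05 and were used for 1 alternative only.

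Starts, counted from 0 in the lists, were converted to count from 1. Transcript starts came from GENCODE release 29 and promoter sequences from RefSeq (GRCh38.p14). The peak assignment was checked on simulated peaks. Shares carry Wilson 95% intervals and medians rank-based 95% intervals, for counting error only (Python 3, pandas, scipy). There were 0 unused columns of per-sample values.

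The members and gene lists were chosen with earlier results of these data known. Named are all members lacking a start peak in a list and, in qPRO-seq 1M, the 5 highest and 5 lowest percentiles, the 5 widest and 5 narrowest peaks, the 3 centres farthest upstream and downstream, the 3 with most start peaks, the 3 whose centres differed most between the 1M lists, the stalk and 5S genes, RPSA and RPS19. Others were named after their values were seen, and some items that the rule takes in are not reported here. Alternatives changed the window, the starts, the peak filters, the merging of peaks and the members.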

Additional observations from a re-analysis of the deposited data

Results flagged for a closer look

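Peaks on alternate scaffolds were in no comparison. They were counted for chromosomes 6, 12, 17 and 19 alone, and are listed where there were more than 3. For chromosome 6, which holds RPS18, there were 25 in PRO-seq 1M, 66 in qPRO-seq 1M and 16 in qPRO-seq 250k. For chromosome 17, which holds RPL27, there were 15 in qPRO-seq 1M. Gene models for these scaffolds were not used here, so no peak on them was matched to a ribosomal protein gene, and these numbers say nothing of RPS18 or RPL27 themselves.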

How the results depend on the processing

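Of 195 values under alternative settings, 22 moved outside the interval of the reported value, and none changed sign. The number of genes with a start peak in all 3 lists, a count with no interval, was 74 as reported. It was 57 of 84 without the lower-scored peaks, 67 with lists reduced to the size of the shortest and 69 with p-values of at most 0.01. When the lower-scored peaks of each list were left out, down from its median score, the share of ribosomal protein genes with a start peak was 82.1% in PRO-seq 1M and 70.2% in qPRO-seq 250k, and the median percentile 68.4 in PRO-seq 1M and 72.8 in qPRO-seq 1M. With each list reduced to the size of the shortest, the share was 82.1% in qPRO-seq 1M, and the median percentile 72.8 in PRO-seq 1M and 68.5 in qPRO-seq 1M. These percentiles are lower by construction, since low-scored peaks leave the list. With peaks within 500 bp merged, the median percentile in PRO-seq 1M was 72.7 and the median widths were 850, 1000 and 610 bp. From the single principal start, median distances without sign were 76, 75 and 67 bp, against 86, 90 and 80 bp for all genes. With that start the signed median in qPRO-seq 250k was -1 bp, and 14.3% of starts had the pyrimidine run. From RefSeq starts, an alternative chosen after seeing the data, signed medians were -46, -72 and -55.5 bp and distances without sign 62, 83 and 58.5 bp. The cause of the shifts other than those by construction was not tested.

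The share with a start peak and the median percentile were above those of all genes in each setting and list run. The median width was above in each setting except merging in qPRO-seq 1M. No paired analysis was possible because each group has 1 list and no values per replicate, and for the same reason no fit without a replicate was run. The depth of the lists is unknown.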
